A study of Mus musculus with 16 samples.

Results

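Hearts of mice carrying a calpain-resistant form of junctophilin-2 (JP2CR) were compared with wildtype (WT) hearts in the absence of pressure overload. The comparison rests on the 8 libraries labelled JP2CR sham 1 to 4 and WT sham 1 to 4, of 16 in the series, chosen by their labels alone and described across all 13522 genes with enough reads to test. The JP2CR mice were homozygous for a deletion of Jph2 codons 563 to 568, and the WT mice were their littermates. All were labelled male and of the C57BL/6N strain, had a sham operation at 9 to 10 weeks of age, and gave ventricular tissue 5 weeks later. The other 8 libraries came from WT and JP2CR mice that had trans-aortic constriction (TAC), a banding of the aorta that overloads the left ventricle, at the same ages. The knock-in is present in all cells of the mouse and not only in cardiomyocytes, and the labels do not say how many founder lines were used. Polyadenylated RNA was sequenced to between 9966782 and 16609732 counts in genes per sham library, so that 3 counts corresponded to between 0.181 and 0.301 CPM (counts scaled to the library's TMM-adjusted total).

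Junctophilin-2 tethers the transverse tubule, an infolding of the cardiomyocyte's surface membrane, to the sarcoplasmic reticulum, so that voltage-gated calcium channels and ryanodine receptors face each other across the dyad. Calpains, calcium-activated proteases, cleave the protein in stressed hearts, and a cleaved amino-terminal fragment is known to enter the nucleus and act on transcription. The comparison of sham-operated hearts asks what the removal of a cleavage site does to the ventricular transcriptome before any load is imposed. The deleted codons lie in exon 4 of 6 of Jph2 on the minus strand of GRCm38, at chr2:163339539-163339556, within a gene that spans chr2:163336242-163397993 and encodes 696 codons. The coding sequence around them, from the GENCODE M21 annotation, is shown with 10 codons on each side to mark what JP2CR lacks, with the 18 deleted bases in capitals.
Jph2 deletion site: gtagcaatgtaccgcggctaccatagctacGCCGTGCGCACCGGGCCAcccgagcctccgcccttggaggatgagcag

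The deletion keeps the reading frame and removes few bases, so the gene's total count does not check the genotype labels. Jph2 stood at 646, 703, 626 and 696 CPM in WT sham 1 to 4 and 654, 612, 728 and 750.0 CPM in JP2CR sham 1 to 4. The groups overlapped, and the log2 fold change of JP2CR over WT was 0.039 ± 0.063 (SE; edgeR adjusted p = 0.921). Calpain cleavage acts on the protein, which these libraries did not measure.

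Some libraries went against their labels or stood apart. JP2CR sham 3 and 4 held 189 and 196 CPM of Xist, the RNA of the inactive X chromosome, and 0 counts of 4 Y-linked genes, whereas the other 6 sham libraries held at most 0.0839 CPM of Xist and 179 to 218 CPM of Y-linked genes. In the same fit, JP2CR TAC 4 held both Xist at 141 CPM and Y-linked genes at 118 CPM. WT sham 3 lay between WT sham 1 and 2 in 89.6% of the 470 genes that differed between those, and WT sham 4 in 83.8%. Such shares varied among libraries. WT TAC 4 lay between WT TAC 1 and 2 in 84%, and JP2CR sham 1 between JP2CR sham 2 and 3 in 75.8%. WT sham 2 lay between WT sham 1 and 3 in only 4.17%. Which share to expect of an ordinary library was not tested. The mean squared difference between WT sham 2 and 4 was 1.54 times the variance of sampling noise, against 2.44 to 7.24 times for the other WT pairs. Within JP2CR this mean ratio was 2.66 for sham 1 and 2, and 15 to 24.2 for every pair with sham 3 or 4. Taken as a median over genes, scaled to sampling noise, it was 1.59 for the former and 3.49 to 5.61 for the latter. Called genes, the main lists and the genes described at length are therefore given with and without the 3 libraries with Xist, and the count of changed genes also without WT sham 3 and 4.

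Of the 13522 genes, 13 were lower in JP2CR at an edgeR adjusted p under 0.05, which is 0.0961%, and none was higher. Among them were the transcription factors Klf2, Fosl2 and Nr4a2, the kinases Sik1 and Sgk1, the interferon and antigen presentation genes Igtp, Irgm2, H2-K1 and B2m, and Mpc1, Enc1 and Sh3rf2. By their fitted fold changes they were 17.1% to 60.8% lower in JP2CR. At an unadjusted edgeR p under 0.05, 562 genes were higher (4.16%) and 516 lower (3.82%), and the median log2 fold change over all genes was 0.0047. DESeq2 called 14 genes higher and 39 lower, and limma voom called 0 higher and 18 lower. The 8 libraries of the groups did not overlap for 376 genes that were lower (2.78%) and 268 that were higher (1.98%).

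**Figure D1:**
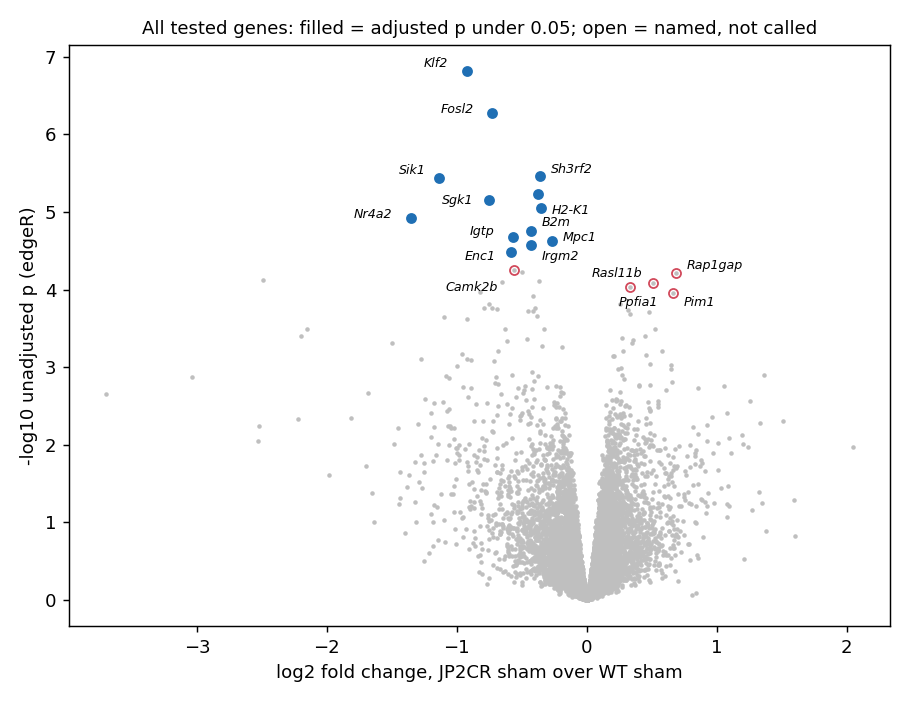
Log2 fold change between the sham groups, JP2CR over WT (x axis), against −log10 of the unadjusted edgeR p (y axis) for the 13522 genes tested, 1 point a gene, with the 13 genes of adjusted p under 0.05 filled, 12 of them named, and some of the next 10 as open circles. The filled points all lie on the side lower in JP2CR, with log2 fold changes from -1.35 for Nr4a2 to -0.27 for Mpc1.

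The count depended on single libraries. It was 7 lower without WT sham 2, 5 without WT sham 3, 8 without JP2CR sham 2 and 27 without JP2CR sham 3, and the number higher ran from 0 to 5, with the 5 reached without JP2CR sham 4. Without the 3 libraries with Xist, 44 genes were lower (0.32%) and 20 higher (0.146%) of 13740 tested, and 10 of the 13 were among the former. Without both WT sham 3 and 4, none was called by edgeR in either direction, with 334 lower and 279 higher at an unadjusted p under 0.05. The estimates of all 13 were below 0 under each of these choices. All 13 had every JP2CR sham library below every WT sham library, so leaving out libraries could hardly turn their sign. No label says which mouse gave which library, so a p-value here speaks of library-to-library spread.

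Among the transcription factors, Klf2, a Krüppel-like factor of endothelial cells that responds to blood flow, stood at 70.3, 73.3, 66.4 and 72.6 CPM in WT sham 1 to 4 and 38, 35, 37.6 and 39.1 CPM in JP2CR sham 1 to 4 (chr8:72319062-72321654 of GRCm38). The libraries of each group were close together and far from the other group, and the fitted level was 47.1% lower in JP2CR. The log2 fold change was -0.92 ± 0.11 (SE; edgeR adjusted p = 0.00206). It was -0.96 (adjusted p = 0.00309) without the 3 libraries with Xist. Summed over 18 endothelial markers, the level was 2845 to 2966 CPM in WT and 2846 to 3338 CPM in JP2CR, so the endothelial genes as a whole were not lower beside Klf2. In tissue RNA, fewer cells of a type and less RNA per cell cannot be told apart.

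Fosl2, a subunit of the AP-1 transcription factor, stood at 68, 86.8, 82.8 and 77.7 CPM in WT sham 1 to 4 and 47.2, 43.5, 55.3 and 43.4 CPM in JP2CR sham 1 to 4 (chr5:32136472-32157840). All 4 JP2CR libraries were below all 4 WT libraries, and the log2 fold change was -0.73 ± 0.095 (SE; edgeR adjusted p = 0.00356), or -0.80 (adjusted p = 0.00309) without the 3 libraries with Xist. Nr4a2, an orphan nuclear receptor of the early response, was much less abundant, at 4.11, 6.58, 5.86 and 4.37 CPM in WT sham 1 to 4 and 2.57, 1.83, 2.34 and 1.25 CPM in JP2CR sham 1 to 4 (chr2:57106830-57124003). These levels rest on 49, 106, 72 and 63 counts in WT and 36, 20, 38 and 12 counts in JP2CR. Its log2 fold change was the furthest from 0 of the 13, at -1.35 ± 0.22 (SE; edgeR adjusted p = 0.0199). The estimate without the 3 libraries with Xist was -1.24 (adjusted p = 0.0509), which no longer passed.

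The 2 kinases are both known as products of acutely induced genes. Sik1, a salt-inducible kinase that restrains CREB-dependent transcription through its coactivators, stood at 91.2, 108, 95.8 and 111 CPM in WT sham 1 to 4 and 47.1, 40.8, 46.7 and 50.1 CPM in JP2CR sham 1 to 4 (chr17:31844248-31855804). Every WT library was above every JP2CR library, and the fitted level was 54.6% lower, with a log2 fold change of -1.14 ± 0.17 (SE; edgeR adjusted p = 0.0122). Sgk1, the serum- and glucocorticoid-regulated kinase, which acts on ion channels and transporters, stood at 90.0, 102, 97.6 and 95.5 CPM in WT sham 1 to 4 and 56.8, 53.1, 56.6 and 63.1 CPM in JP2CR sham 1 to 4 (chr10:21882184-21999903). Its groups did not overlap either, and the log2 fold change was -0.75 ± 0.12 (SE; edgeR adjusted p = 0.016). With the 3 libraries with Xist left out, Sik1 was at -1.21 (adjusted p = 0.0229) and Sgk1 at -0.81 (adjusted p = 0.0241).

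The next group belongs to interferon signalling and antigen presentation. H2-K1, a heavy chain of the major histocompatibility complex (MHC) class I, stood at 249, 238, 230.0 and 243 CPM in WT sham 1 to 4 and 185, 176, 203 and 190.0 CPM in JP2CR sham 1 to 4 (chr17:33996012-34000619), and its log2 fold change was -0.35 ± 0.057 (SE; edgeR adjusted p = 0.0173). The lowest WT library was above the highest JP2CR library. Class I heavy chain genes are near-identical in parts, so the division of reads among H2-K1 and its relatives is uncertain. B2m, the light chain shared by class I molecules, was at 360.1, 277, 327 and 292 CPM in WT sham 1 to 4 and 221, 219, 254 and 237 CPM in JP2CR sham 1 to 4 (chr2:122147687-122153082), with a log2 fold change of -0.43 ± 0.074 (SE; edgeR adjusted p = 0.0268).

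Igtp, an interferon-gamma-inducible GTPase (also known as Irgm3) that acts against intracellular pathogens, stood at 38.6, 35, 36.7 and 37.5 CPM in WT sham 1 to 4 and 23.5, 24.6, 23.2 and 28.6 CPM in JP2CR sham 1 to 4 (chr11:58199556-58207592). Its JP2CR libraries all lay below the WT range, and the log2 fold change was -0.57 ± 0.099 (SE; edgeR adjusted p = 0.0286). Irgm2, a GTPase of the same family, stood at 58.4, 46.1, 53.9 and 51.3 CPM in WT sham 1 to 4 and 38.8, 40.3, 39.3 and 36.7 CPM in JP2CR sham 1 to 4 (chr11:58214977-58222783). The groups were again apart, with a log2 fold change of -0.43 ± 0.077 (SE; edgeR adjusted p = 0.0303). Without the 3 libraries with Xist, H2-K1 was at -0.42 (adjusted p = 0.00783), B2m at -0.52 (adjusted p = 0.0127) and Igtp at -0.62 (adjusted p = 0.027), whereas Irgm2 at -0.41 (adjusted p = 0.0659) did not pass. Macrophage markers summed to 390 to 431 CPM in WT and 402 to 496 CPM in JP2CR over 19 genes, of which 18 were tested. Lymphocyte and neutrophil markers summed to 12.2 to 13.2 CPM in WT and 6.91 to 11.5 CPM in JP2CR over the 18 found in the table, of which 8 were tested. These sums did not overlap, but they did without Jchain, the joining chain of secreted antibodies, at 9.38 to 10.4 CPM in WT and 6.47 to 10.5 CPM in JP2CR. Cd3e, Cd3d, Cd3g, Cd8a, Cd79a and Ms4a1, which define T and B cells, were under 1 CPM in all 8 libraries. The part of these cells in the lower antigen presentation genes was not tested.

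The last 3 share no single pathway. Mpc1, a subunit of the carrier that brings pyruvate into mitochondria, stood at 288, 279, 278 and 283 CPM in WT sham 1 to 4 and 236, 216, 236 and 246 CPM in JP2CR sham 1 to 4 (chr17:8283787-8297667). This was the smallest of the called differences, with groups that did not overlap and a log2 fold change of -0.27 ± 0.048 (SE; edgeR adjusted p = 0.0293). Enc1, an actin-binding protein of the kelch family, stood at 16.8, 21.1, 19.3 and 19 CPM in WT sham 1 to 4 and 13.8, 14.4, 10.3 and 12.9 CPM in JP2CR sham 1 to 4 (chr13:97241105-97253040), with a log2 fold change of -0.58 ± 0.10 (SE; edgeR adjusted p = 0.0346). Sh3rf2, a scaffold protein with SH3 and RING domains, stood at 45.2, 46.5, 48.4 and 45.7 CPM in WT sham 1 to 4 and 34.1, 35.5, 37.8 and 37.5 CPM in JP2CR sham 1 to 4, with a log2 fold change of -0.36 ± 0.054 (SE; edgeR adjusted p = 0.0122). For Enc1 and Sh3rf2 too, every JP2CR library was below every WT library. Leaving out the libraries with Xist, Mpc1 was at -0.32 (adjusted p = 0.0161) and Sh3rf2 at -0.42 (adjusted p = 0.00783), while Enc1 at -0.45 (adjusted p = 0.0935) was not called.

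**Figure D2:**
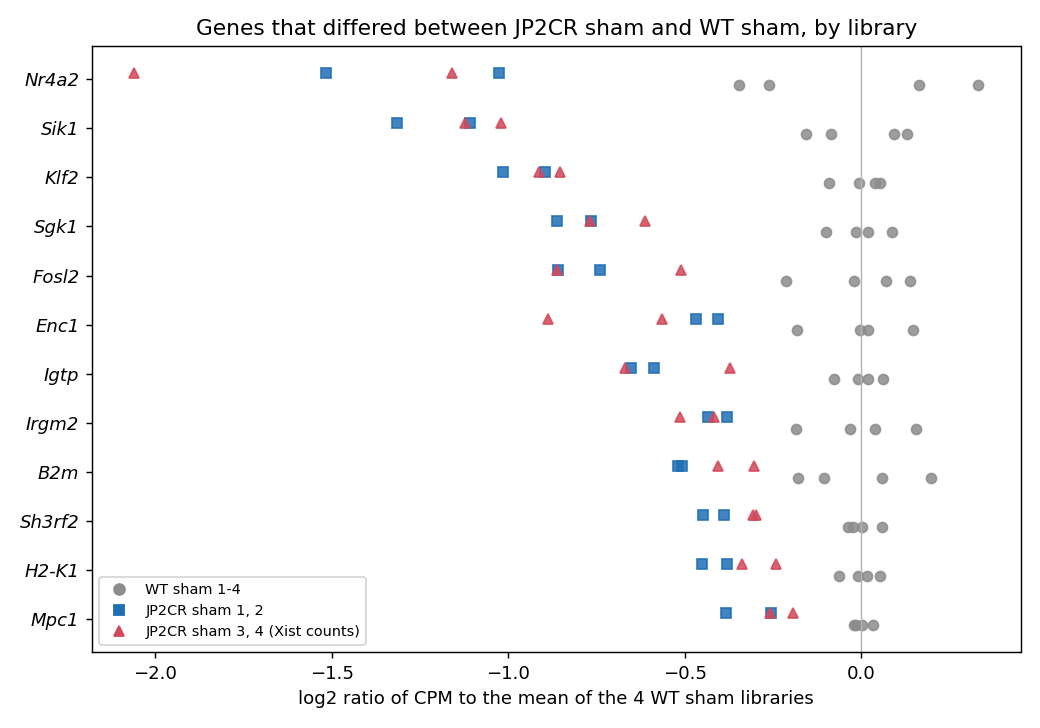
Log2 ratio of each library's CPM to the mean of the 4 WT sham libraries (x axis) for 12 of the 13 genes called lower in JP2CR (y axis), 1 point a library, coloured by group. In all 12 genes the 4 JP2CR points lie to the left of the 4 WT points, furthest for Nr4a2 and Sik1 and closest for Mpc1.

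Of the 13, 4 kept an adjusted p under 0.05 when any 1 of the 8 sham libraries was left out, with the largest value at 0.0162 for Klf2, 0.0227 for Fosl2, 0.0447 for Sik1 and 0.0499 for Sh3rf2. Sgk1 missed the threshold without WT sham 2, WT sham 3 or JP2CR sham 2, at up to 0.0608, and Nr4a2 without the same libraries, at up to 0.0887. H2-K1 missed it without WT sham 1, WT sham 2 or JP2CR sham 2, at up to 0.06, and B2m without WT sham 1, WT sham 3, JP2CR sham 1 or JP2CR sham 2, at up to 0.0866. The least stable were Mpc1 (up to 0.0849; lost without any WT library or JP2CR sham 2), Igtp (up to 0.0923; lost without any WT library, JP2CR sham 1 or JP2CR sham 2), Irgm2 (up to 0.119; kept only without WT sham 2 or JP2CR sham 3) and Enc1 (up to 0.166; kept only without WT sham 1, JP2CR sham 1 or JP2CR sham 2).

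The 10 genes next in order of p, which did not pass, included 4 higher in JP2CR by their estimates. Rap1gap, an inhibitor of the small GTPase Rap1, stood at 13.5, 20.9, 14.5 and 19.6 CPM in WT sham 1 to 4 and 25.7, 31, 23.2 and 31.9 CPM in JP2CR sham 1 to 4, with no overlap and a log2 fold change of 0.69 ± 0.13 (SE; edgeR adjusted p = 0.0517). Pim1, a survival kinase, stood at 19.2, 18.8, 15.9 and 19.3 CPM in WT sham 1 to 4 and 33.5, 32.6, 26.8 and 22.6 CPM in JP2CR sham 1 to 4, with a log2 fold change of 0.66 ± 0.13 (SE; edgeR adjusted p = 0.0656). Rasl11b, a Ras-like GTPase, and Ppfia1, a liprin scaffold protein, had log2 fold changes of 0.51 and 0.33 (adjusted p = 0.0552 and 0.0589 by edgeR). Rap1gap at 0.71 (adjusted p = 0.0436), Pim1 at 0.85 (adjusted p = 0.00783) and Rasl11b at 0.52 (adjusted p = 0.00915) passed without the 3 libraries with Xist.

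The other 6 had estimates below 0. Camk2b, the beta chain of the calcium- and calmodulin-dependent kinase, stood at 29, 29.8, 30.3 and 31.4 CPM in WT sham 1 to 4 and 20.9, 25.6, 18.9 and 16.2 CPM in JP2CR sham 1 to 4, with no overlap and a log2 fold change of -0.56 ± 0.11 (SE; edgeR adjusted p = 0.0517), or -0.38 (adjusted p = 0.0717) without the 3 libraries with Xist. Fosb, an AP-1 subunit, stood at 2.27, 11.5, 7.98 and 9.08 CPM in WT sham 1 to 4 and 1.07, 0.915, 2.78 and 0.314 CPM in JP2CR sham 1 to 4, on 27, 186, 98 and 131 against 15, 10, 45 and 3 counts, and JP2CR sham 3 was above WT sham 1. Its log2 fold change was -2.49 ± 0.48 (SE; edgeR adjusted p = 0.0552). Ifi27, an interferon-induced mitochondrial protein, was at 57.7, 63.1, 59.6 and 61.6 CPM in WT sham 1 to 4 and 37.5, 33.6, 51.9 and 29.8 CPM in JP2CR sham 1 to 4, and Tob2, an antiproliferative protein that binds the deadenylation machinery, at 145, 156, 149 and 155 CPM in WT sham 1 to 4 and 69.8, 74.9, 79.5 and 120.0 CPM in JP2CR sham 1 to 4. Both were lower in every JP2CR library, with adjusted p = 0.0552 and 0.0656 by edgeR. Ifi27 reached -0.77 (adjusted p = 0.000293) and Tob2 -1.07 (adjusted p = 0.00309) without the 3 libraries with Xist. Phactr1, an actin and phosphatase regulator, and H2-Q4, a class I gene, had log2 fold changes of -0.50 and -0.37 (adjusted p = 0.0517 and 0.0552 by edgeR).

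Immediate early genes encode transcription factors and feedback regulators that cells switch on within minutes of a stimulus, without new protein synthesis. Of 28 such genes tested, of 29 in the table, 3 were called lower in JP2CR (Klf2, Fosl2 and Nr4a2) and none higher, against 0.0961% and 0% of all genes. At an unadjusted p under 0.05, 15 were lower and 2 higher (3.82% and 4.16% of all genes), and 12 were lower without overlap against 1 higher (2.78% and 1.98% of all genes). The median log2 fold change of the list was -0.49, against 0.0047 over all genes. It was -0.66 without the 3 libraries with Xist, with 6 of the 28 called lower (0.32% of all genes in that fit). When only the sham libraries without Xist were fitted, JP2CR sham 1 and 2 alone stood for JP2CR. There, 18 of 27 were called lower, while 242 of all 13341 genes tested were called lower and 160 higher. Without WT sham 3 and 4 the median was -0.52, with none of the 28 called. Without JP2CR sham 3 alone, 9 were called lower with a median of -0.73, and 2 without WT sham 2, WT sham 3 or JP2CR sham 2.

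Fos, the AP-1 subunit that defines the class, stood at 17, 37.9, 23.8 and 30.1 CPM in WT sham 1 to 4 and 5.70, 5.58, 8.88 and 3.66 CPM in JP2CR sham 1 to 4. Every JP2CR library was below the lowest WT library, and the log2 fold change of -2.15 ± 0.48 (SE; edgeR adjusted p = 0.105) did not pass across all genes. Egr1, a zinc finger factor, stood at 36, 68.9, 49.7 and 60.9 CPM in WT sham 1 to 4 and 21, 22.1, 29 and 13.1 CPM in JP2CR sham 1 to 4, and Nr4a1, an orphan receptor related to Nr4a2, at 82, 133, 106 and 118 CPM in WT sham 1 to 4 and 38.5, 37, 70.7 and 33.9 CPM in JP2CR sham 1 to 4. Neither overlapped between groups, and the edgeR adjusted p was 0.464 for Egr1 and 0.174 for Nr4a1. The log2 fold changes without the 3 libraries with Xist were -2.28 (adjusted p = 0.119) for Fos, -1.34 (adjusted p = 0.498) for Egr1 and -1.54 (adjusted p = 0.0738) for Nr4a1. WT sham 1 was the lowest of the WT libraries for Fos, Egr1 and Nr4a1, and JP2CR sham 3 the highest of the JP2CR libraries.

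Of the feedback regulators, Zfp36, which promotes decay of mRNAs with AU-rich elements, stood at 45.6, 55.1, 44.5 and 50.7 CPM in WT sham 1 to 4 and 24.3, 24.5, 25 and 30.4 CPM in JP2CR sham 1 to 4, with a log2 fold change of -0.92 ± 0.23 (SE; edgeR adjusted p = 0.174). Dusp1, a phosphatase of MAP kinases, stood at 99.4, 109.5, 102 and 106 CPM in WT sham 1 to 4 and 66.4, 66.2, 52.2 and 70.5 CPM in JP2CR sham 1 to 4, with a log2 fold change of -0.71 ± 0.18 (SE; edgeR adjusted p = 0.179). Both had all JP2CR libraries below all WT libraries, and were at -1.01 (adjusted p = 0.125) and -0.66 (adjusted p = 0.195) without the 3 libraries with Xist. Klf4, a relative of Klf2, stood at 57.6, 69.9, 60.7 and 62.3 CPM in WT sham 1 to 4 and 39.1, 40.8, 52.6 and 50.6 CPM in JP2CR sham 1 to 4, and its log2 fold change of -0.45 ± 0.096 (SE; edgeR adjusted p = 0.0768) became -0.66 (adjusted p = 0.00783) without the 3 libraries with Xist. Atf3, chosen after its values were seen, stood at 13.2, 14.5, 12.9 and 15.1 CPM in WT sham 1 to 4 and 7.20, 6.31, 54.6 and 4.60 CPM in JP2CR sham 1 to 4. For this stress-induced factor, 3 JP2CR libraries were below the WT range and JP2CR sham 3 was far above it.

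Early genes are known targets of CREB, which binds the motif TGACGTCA or its core TGACG. RefSeq promoter sequences on GRCm38 (250 bases upstream of the start, the first entry of each gene where there were several) were found for 9 of the 13 called genes. TGACG occurred on either strand in 4 of those 9, against 26.8% of 10264 promoters of tested genes. The 4 were Klf2, Nr4a2, H2-K1 and B2m, while the early gene Fosl2 held none. TGACG was in 47.8% of 23 early response promoters and in 50% of 14 antigen presentation promoters, so it was not particular to early genes. The promoter of Nr4a2, at chr2:57124004-57124253 on the minus strand, is printed because it held 4 matches, in capitals (CGTCA is the same motif on the other strand).
Nr4a2 promoter: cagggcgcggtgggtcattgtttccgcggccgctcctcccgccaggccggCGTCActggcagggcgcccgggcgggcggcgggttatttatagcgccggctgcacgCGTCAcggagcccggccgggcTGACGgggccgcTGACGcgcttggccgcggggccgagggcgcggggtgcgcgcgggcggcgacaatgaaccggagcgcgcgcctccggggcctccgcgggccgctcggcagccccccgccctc

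None of the 9 held the whole TGACGTCA, which 2.73% of the promoters of tested genes held, or a CArG box, the serum response element core that 1.19% held. A match describes letters in a window and not a bound site.

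Antigen presentation genes load peptides on MHC molecules at the cell surface, class I in nearly all cells and class II in macrophages and other professional presenting cells. Of 19 tested of 21, 2 were called lower (H2-K1 and B2m), 10 were lower at an unadjusted p under 0.05 and none higher, and 9 were lower without overlap, against 0.0961%, 3.82%, 4.16% and 2.78% of all genes. The median log2 fold change was -0.32, and -0.28 with 3 called lower without the 3 libraries with Xist. No member was called without WT sham 1 or JP2CR sham 2, 1 was without WT sham 2, WT sham 3 or JP2CR sham 1, and 3 were without JP2CR sham 3. In class I, H2-D1 had a log2 fold change of -0.20 ± 0.054 (SE; edgeR adjusted p = 0.284). Tap1, the peptide transporter, named after its values were seen, stood at 19, 17.8, 18.2 and 17.8 CPM in WT sham 1 to 4 and 19.5, 17, 18.1 and 17.3 CPM in JP2CR sham 1 to 4, and its groups overlapped throughout.

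In class II, H2-Aa stood at 63.9, 71.5, 69.8 and 70.3 CPM in WT sham 1 to 4 and 48.6, 54.4, 41.4 and 57.3 CPM in JP2CR sham 1 to 4, with a log2 fold change of -0.46 ± 0.11 (SE; edgeR adjusted p = 0.127). H2-Eb1 stood at 55.2, 55.5, 55.8 and 60.6 CPM in WT sham 1 to 4 and 42.4, 47, 35.1 and 46.5 CPM in JP2CR sham 1 to 4, with a log2 fold change of -0.42 ± 0.084 (SE; edgeR adjusted p = 0.0683). For both chains all JP2CR libraries were below all WT libraries, with JP2CR sham 3 the lowest. H2-Ab1 had a log2 fold change of -0.42 ± 0.12 (SE; edgeR adjusted p = 0.268). Cd74, the invariant chain that guides class II molecules, stood at 126, 149, 136 and 149.5 CPM in WT sham 1 to 4 and 113, 117, 97.1 and 122 CPM in JP2CR sham 1 to 4 and likewise did not overlap, with a log2 fold change of -0.32 ± 0.11 (SE; edgeR adjusted p = 0.399). None of these 4 class II genes passed across all genes, and without the 3 libraries with Xist H2-Aa was at -0.43 (adjusted p = 0.107) and H2-Eb1 at -0.35 (adjusted p = 0.0799).

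The interferon response list was not uniformly lower. Of 34 genes, 2 were called lower, Igtp among them, while at an unadjusted p under 0.05 4 were lower and 11 higher, against 0.0961%, 3.82% and 4.16% of all genes, and the median log2 fold change was 0.19. The number called lower ran from 0 without WT sham 3 to 3 without JP2CR sham 3, and was 1 without any one of WT sham 1, WT sham 2, WT sham 4, JP2CR sham 1 and JP2CR sham 2. Irgm2 was not in the list as written. Rsad2, an antiviral enzyme, stood at 22.5, 19.6, 24 and 20.5 CPM in WT sham 1 to 4 and 31.1, 29.2, 29 and 31.4 CPM in JP2CR sham 1 to 4, with all JP2CR libraries above all WT libraries and a log2 fold change of 0.48 ± 0.10 (SE; edgeR adjusted p = 0.0768). Ifit3, Ifitm3 and Bst2, which restrict viral translation, entry and release, had log2 fold changes of 0.49, 0.27 and 0.28 (edgeR adjusted p = 0.267, 0.125 and 0.369). The list's median was 0.058 without the 3 libraries with Xist, with 3 called lower.

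Interferon acts on promoters through the gamma-activated sequence TTCNNNGAA (GAS) and the interferon-stimulated response element (ISRE), whose core was searched as GAAA, any 2 bases and GAAA. Of the 9 called genes with a RefSeq promoter, 3 held TTCNNNGAA and 5 held the ISRE core on either strand, against 6% and 2.57% of the promoters of tested genes. TTCNNNGAA was in Sgk1, Igtp and Irgm2, and the ISRE core in Fosl2, Sgk1, B2m, Igtp and Irgm2. Sgk1 has several promoter entries, and both of its matches were in the first, the one counted. Its entries 2 to 6 held neither motif. H2-K1 held neither. The Igtp and Irgm2 windows share long stretches of letters, so their matches are not independent. The promoters of Igtp (chr11:58199306-58199555, plus strand), Irgm2 (chr11:58214727-58214976, plus strand) and B2m (chr2:122147437-122147686, plus strand) are shown to let the matches, in capitals, be compared; the match TGACG in B2m is in capitals as well.
Igtp promoter: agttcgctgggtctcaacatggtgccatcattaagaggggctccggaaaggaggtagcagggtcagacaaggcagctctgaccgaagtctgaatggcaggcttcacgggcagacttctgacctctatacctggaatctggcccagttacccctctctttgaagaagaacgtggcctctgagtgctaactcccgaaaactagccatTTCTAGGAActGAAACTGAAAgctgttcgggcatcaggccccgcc
Irgm2 promoter: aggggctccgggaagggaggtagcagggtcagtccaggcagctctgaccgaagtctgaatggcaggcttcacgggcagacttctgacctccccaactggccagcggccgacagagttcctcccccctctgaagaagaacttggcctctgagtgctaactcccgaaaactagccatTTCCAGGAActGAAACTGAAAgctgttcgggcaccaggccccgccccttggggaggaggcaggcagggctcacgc
B2m promoter: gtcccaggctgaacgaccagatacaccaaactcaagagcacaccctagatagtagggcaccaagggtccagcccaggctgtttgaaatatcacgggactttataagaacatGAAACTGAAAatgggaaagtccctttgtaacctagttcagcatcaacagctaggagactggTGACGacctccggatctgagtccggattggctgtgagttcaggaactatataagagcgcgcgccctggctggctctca

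In Igtp the GAS letters began 45 bases before the gene's start and the ISRE core 34 bases before it, and in Irgm2 75 and 64 bases before it. In B2m the ISRE core began 139 bases before the start.

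Clock genes, which run the daily cycle of transcription, varied widely among the JP2CR libraries. None of 20 tested was called in either direction. At an unadjusted p under 0.05, 1 was lower and 1 higher (3.82% and 4.16% of all genes), and the median log2 fold change was -0.19. In 17 of the 20 the values of JP2CR sham 1 and 2 did not overlap those of JP2CR sham 3 and 4, against 50.2% of all genes. Arntl, the activator of the clock, stood at 9.90, 16.2, 12.6 and 12.3 CPM in WT sham 1 to 4 and 30.9, 36.2, 2.28 and 9.41 CPM in JP2CR sham 1 to 4: JP2CR sham 1 and 2 were above the WT range and JP2CR sham 3 and 4 below it. Per1, a repressor, stood at 129.7, 139, 129 and 146 CPM in WT sham 1 to 4 and 42.1, 43.2, 90.9 and 119 CPM in JP2CR sham 1 to 4, with JP2CR sham 1 and 2 the lowest. Per2, Dbp and Ciart, named after their values were seen, also divided JP2CR sham 1 and 2 from JP2CR sham 3 and 4.

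Per2 stood at 31.4, 19.9, 23.3 and 26.3 CPM in WT sham 1 to 4 and 6.99, 5.67, 99.7 and 41 CPM in JP2CR sham 1 to 4, with JP2CR sham 1 and 2 below the WT range and JP2CR sham 3 and 4 above it. Dbp, an output factor of the clock, stood at 149.9, 84.6, 101 and 102 CPM in WT sham 1 to 4 and 25.2, 22.4, 83.8 and 153 CPM in JP2CR sham 1 to 4, and Ciart, a repressor, at 18.8, 9.19, 13.9 and 10.0 CPM in WT sham 1 to 4 and 1.85, 1.19, 9.56 and 16.1 CPM in JP2CR sham 1 to 4. For both, JP2CR sham 1 and 2 were the lowest of the 8 libraries. The median of the clock list was -0.66 without the 3 libraries with Xist, with 1 called lower, Bhlhe40. When only the sham libraries without Xist were fitted, with JP2CR sham 1 and 2 alone for JP2CR, 13 were called lower and 4 higher. That fit called 242 of all 13341 genes tested lower and 160 higher. The labels give no hour of tissue collection, and its part in the genes called was not tested.

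Of 16 glucocorticoid-responsive genes tested, 1 was called lower (Sgk1) and 4 were lower and 1 higher at an unadjusted p under 0.05, against 0.0961%, 3.82% and 4.16% of all genes. In 12 of them, against 50.2% of all genes, the values of JP2CR sham 1 and 2 did not overlap those of JP2CR sham 3 and 4. Sgk1 and Dusp1 were among 4 that were lower in all JP2CR libraries without overlap with WT (2.78% of all genes). The median log2 fold change was -0.060, and -0.59 without the 3 libraries with Xist, but 0.032 without JP2CR sham 1 and 0.016 without JP2CR sham 2. Sgk1 was not called, and no other member was, without WT sham 2, WT sham 3 or JP2CR sham 2. By contrast, 11 of the 16 were called lower when only the sham libraries without Xist were fitted. JP2CR sham 1 and 2 alone stood for JP2CR there, and 242 of all 13341 genes tested were called lower and 160 higher. Fkbp5, a chaperone that dampens the glucocorticoid receptor, stood at 12.5, 14, 13 and 15.8 CPM in WT sham 1 to 4 and 13.3, 12.9, 51.6 and 38.8 CPM in JP2CR sham 1 to 4. Zbtb16, a transcription factor named after its values were seen, stood at 46.7, 48.2, 44.9 and 44.8 CPM in WT sham 1 to 4 and 30.8, 32.2, 149 and 127 CPM in JP2CR sham 1 to 4. In both, JP2CR sham 3 and 4 were far above the other 6 libraries, whereas Sgk1 itself was low in all 4 JP2CR libraries.

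**Figure D3:**
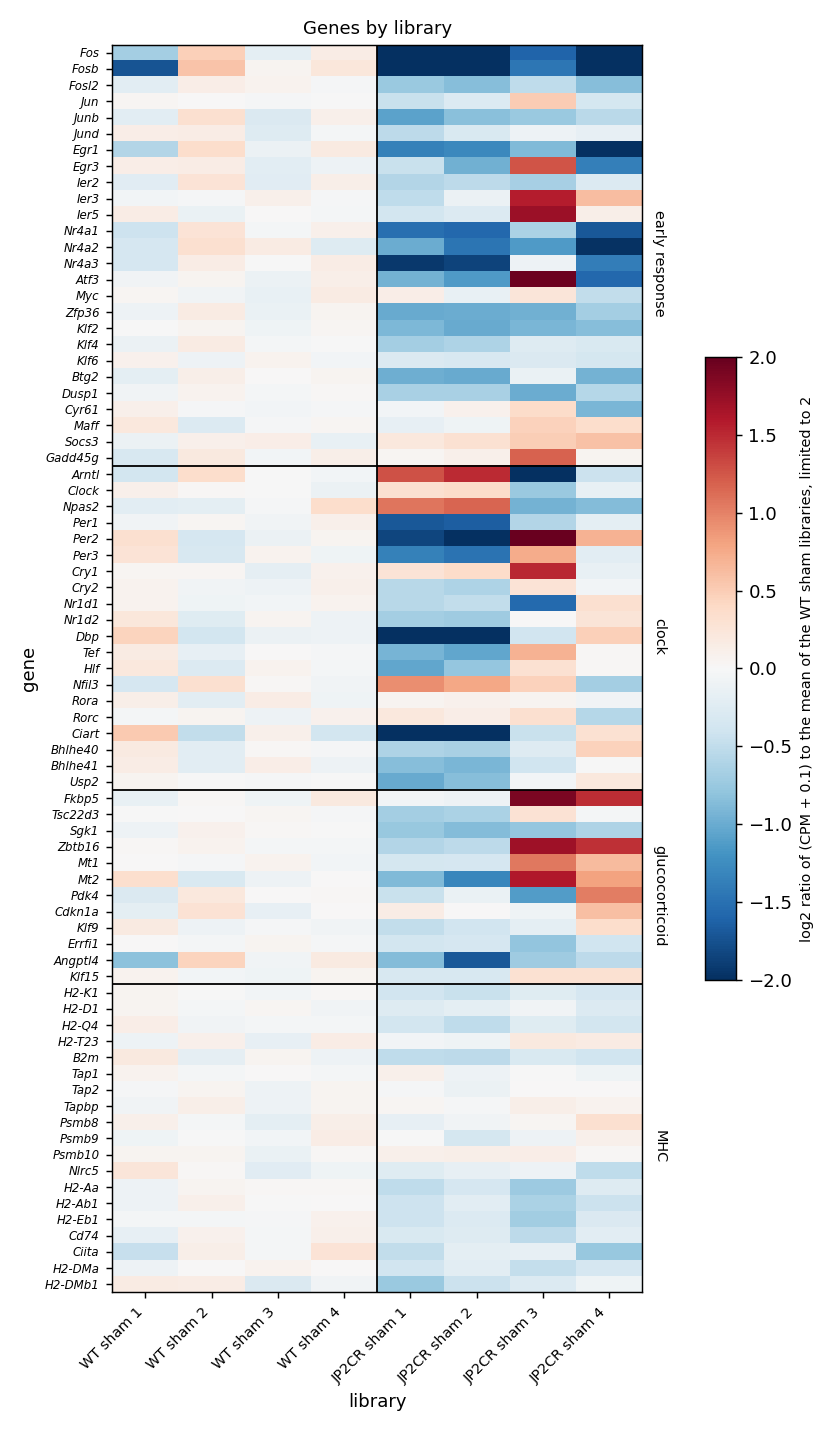
Log2 ratio of CPM plus 0.1 to the WT sham mean (colour, limited to 2 in each direction) in the 8 sham libraries (columns) for early response, clock, glucocorticoid-responsive and antigen presentation genes with a WT mean of at least 2 CPM (rows). Many early and antigen presentation genes are low across the 4 JP2CR columns. In 17 of 20 clock and 12 of 16 glucocorticoid genes tested, JP2CR sham 1 and 2 lie apart from JP2CR sham 3 and 4. The share over all genes tested is 50.2%.

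Genes of the dyad and of calcium handling form the machinery in which junctophilin-2 works. None of the 20 dyad genes tested was called, as for nearly all genes (0.0961% called lower and 0% higher), with 1 lower at an unadjusted p under 0.05 (3.82% of all genes) and a median log2 fold change of -0.042. Of 27 genes of sarcoplasmic reticulum calcium handling, none was called. At an unadjusted edgeR p under 0.05, 2 were lower and 1 higher, against 3.82% and 4.16% of all genes. The median was -0.049, and Camk2b, described above, was the nearest to the threshold. Ryr2, the ryanodine receptor, had a log2 fold change of -0.049 ± 0.074 (SE; edgeR adjusted p = 0.914). Atp2a2, the calcium pump SERCA2, had one of 0.055 ± 0.058 (SE; edgeR adjusted p = 0.868). Sri, the calcium-binding protein sorcin, was at 0.20 ± 0.049 (SE; edgeR adjusted p = 0.165) and Cacna1h, a T-type calcium channel, at -0.66 ± 0.18 (SE; edgeR adjusted p = 0.285).

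Calpains and calpastatin, the protease family that cleaves junctophilin-2 and its inhibitor, were also not called in any of 10 tested. At an unadjusted edgeR p under 0.05, 1 was lower, against 3.82% of all genes. Capn1 and Capn2, the catalytic subunits of the ubiquitous calpains, had log2 fold changes of -0.0033 ± 0.072 (SE; edgeR adjusted p = 0.994) and 0.033 ± 0.049 (SE; edgeR adjusted p = 0.913). Cast, calpastatin, was at -0.0036 ± 0.06 (SE; edgeR adjusted p = 0.993), and Capn3, the skeletal muscle calpain, at -0.42 ± 0.15 (SE; edgeR adjusted p = 0.441). Leaving out the libraries with Xist or single libraries turned the sign of the estimates for Jph2, Ryr2, Atp2a2, Capn1, Capn2 and Cast, which are therefore given without a direction.

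The load response genes, which mark a strained ventricle, were not called in any of 25 tested. At an unadjusted edgeR p under 0.05, 2 were higher, against 4.16% of all genes. The median log2 fold change was -0.010. Nppb, brain natriuretic peptide, stood at 133, 114, 126 and 121 CPM in WT sham 1 to 4 and 207, 172, 269 and 125 CPM in JP2CR sham 1 to 4. JP2CR sham 1 to 3 were above the WT range and JP2CR sham 4 was inside it, with a log2 fold change of 0.65 ± 0.16 (SE; edgeR adjusted p = 0.195). Without the 3 libraries with Xist it was 0.62 (adjusted p = 0.00915), and without JP2CR sham 4 alone it was 0.80 (edgeR adjusted p = 0.0133). Nppa, atrial natriuretic peptide, stood at 1774, 2361, 2024 and 2229.7 CPM in WT sham 1 to 4 and 1936, 1295, 3890.3 and 149 CPM in JP2CR sham 1 to 4, and JP2CR sham 3 and 4 held the highest and lowest of the 8 values. Its log2 fold change was -0.21 ± 0.51 (SE; edgeR adjusted p = 0.956).

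The 16 atrial markers, Nppa among them, summed to 5286 to 7210 CPM in WT, to 8827 CPM in JP2CR sham 3 and to 1403 CPM in JP2CR sham 4. Myh7, the slow myosin heavy chain, stood at 286, 247, 253 and 271 CPM in WT sham 1 to 4 and 234, 235, 296 and 92.2 CPM in JP2CR sham 1 to 4, and was lowest in JP2CR sham 4. Acta1, skeletal actin, stood at 509.6, 376, 424 and 443 CPM in WT sham 1 to 4 and 440.4, 208, 809.7 and 162 CPM in JP2CR sham 1 to 4, again with JP2CR sham 3 highest and JP2CR sham 4 lowest. The log2 fold changes of Myh7, Acta1 and Myh6, the fast myosin heavy chain, were -0.30, -0.11 and 0.11 (edgeR adjusted p = 0.799, 0.968 and 0.837). Those of Nppa and Acta1 changed sign without JP2CR sham 4, to 0.17 and 0.14, and that of Myh6 without the libraries with Xist, to -0.16. None of the 22 sarcomere genes was called, and none had an unadjusted p under 0.05. The part of tissue makeup in these values was not tested.

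Metabolic lists held no called gene in either direction, against 0.0961% of all genes called lower and 0% higher. Among 35 genes of fatty acid oxidation and lipid handling, 7 were lower and 1 higher at an unadjusted p under 0.05 (median -0.055), against 3.82% and 4.16% of all genes. Hadh, which oxidises hydroxyacyl-CoA in mitochondria, had a log2 fold change of -0.19 ± 0.057 (SE; edgeR adjusted p = 0.351). Of 18 genes that break down branched-chain amino acids, 4 were lower at an unadjusted p under 0.05 and none higher (median -0.063). Bckdha, a subunit of the dehydrogenase that commits these amino acids to breakdown, was at -0.21 ± 0.081 (SE; edgeR adjusted p = 0.485), and Pccb, of propionyl-CoA carboxylase, at -0.15 ± 0.051 (SE; edgeR adjusted p = 0.411). None of 37 respiratory chain genes and none of 15 tricarboxylic acid cycle genes had an unadjusted p under 0.05. No gene was called either among 23 of glucose use, 35 of the extracellular matrix, 28 ion channels, 20 heat shock proteins, 30 of the unfolded protein and integrated stress response, 22 of redox defence or 37 ribosomal proteins, and the medians of these lists lay between -0.014 for ion channels and 0.072 for ribosomal proteins. Nnt, the mitochondrial transhydrogenase that differs among C57BL/6 substrains, had a log2 fold change of 0.084 ± 0.055 (SE; edgeR adjusted p = 0.764).

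Scd1, the stearoyl-CoA desaturase, stood at 35.4, 639, 385 and 447 CPM in WT sham 1 to 4 and 47.3, 29.7, 83.4 and 20.2 CPM in JP2CR sham 1 to 4, with WT sham 1 as low as the JP2CR libraries and a log2 fold change of -3.03 ± 0.80 (SE; edgeR adjusted p = 0.238). Adipocyte markers summed to between 99.4 and 348 CPM in WT and between 77.6 and 385 CPM in JP2CR over 12 genes, the highest being JP2CR sham 3. Cell cycle genes were mostly above 0 in their estimates, with 2 of 30 below 0, against 6523 of all 13522 genes. At an unadjusted edgeR p under 0.05, 4 were higher, against 4.16% of all genes, and none was called. The median log2 fold change was 0.29, or 0.61 without the 3 libraries with Xist. Mcm5, a subunit of the replicative helicase, stood at 4.03, 4.16, 3.75 and 5.20 CPM in WT sham 1 to 4 and 6.85, 6.95, 7.40 and 5.75 CPM in JP2CR sham 1 to 4, without overlap, with a log2 fold change of 0.66 ± 0.18 (SE; edgeR adjusted p = 0.261). Cdk1, the mitotic kinase, was at 1.26 ± 0.36 (SE; edgeR adjusted p = 0.312), and Mki67, a proliferation marker, at 0.43 ± 0.23 (SE; edgeR adjusted p = 0.673).

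**Figure D4:**
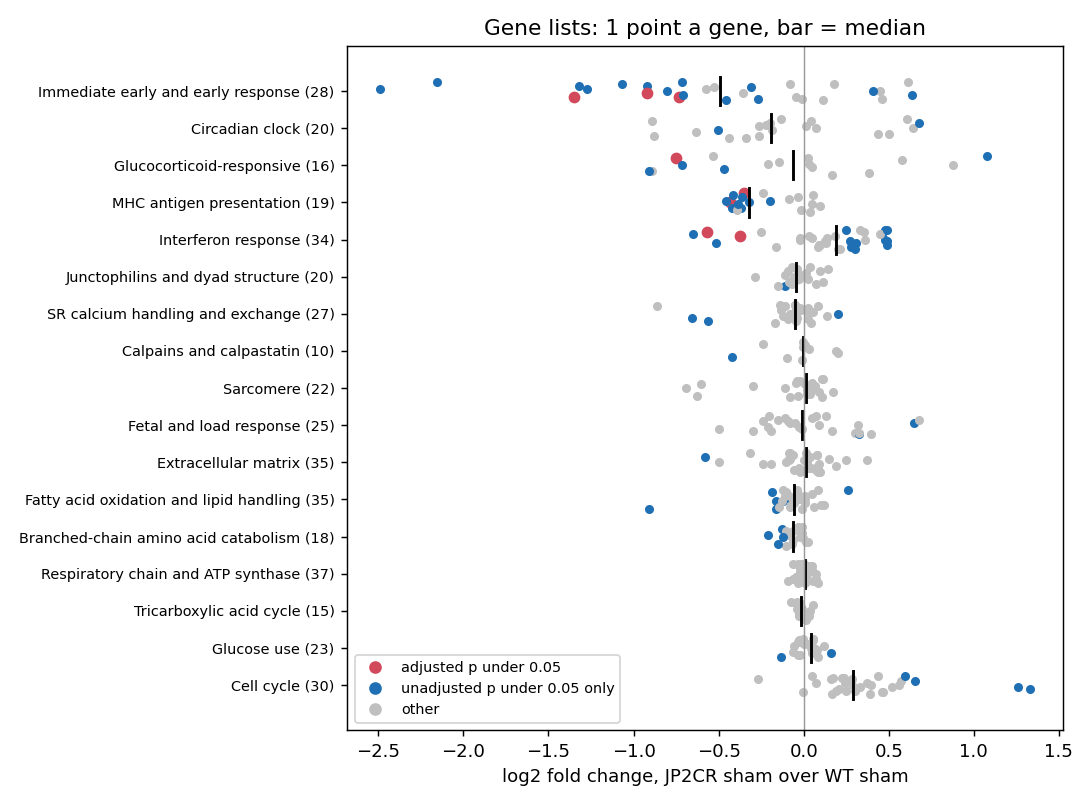
Log2 fold change between the sham groups, JP2CR over WT (x axis), for the tested members of 17 gene lists (y axis), 1 point a gene, with the median of each list as a bar. The medians of early response (-0.49) and antigen presentation genes (-0.32) lie furthest below 0 and that of cell cycle genes (0.29) furthest above, while dyad, calcium handling, sarcomere and respiratory chain genes centre near 0.

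When the 3 libraries with Xist were left out, only JP2CR sham 1 and 2 stood for the genotype, and 64 genes (0.466%) were called. In 59 of the 64 the estimate had the same sign with all libraries. That fit includes the libraries by which the 64 were called, so this match is not an independent check. Among the lowest were Nr4a3 and Csrnp1, early response factors, and Cebpb, a transcription factor of inflammation and fat. Nr4a3 stood at 8.56, 12, 10.7 and 12.1 CPM in WT sham 1 to 4 and 2.78, 2.93, 10.1 and 4.08 CPM in JP2CR sham 1 to 4, with JP2CR sham 3 within the WT range and the other 3 below it. Csrnp1 stood at 23.6, 28.4, 25.1 and 26.9 CPM in WT sham 1 to 4 and 10.1, 10.1, 11.2 and 23.4 CPM in JP2CR sham 1 to 4, and JP2CR sham 4 was close to WT. For Cebpb, at 9.73, 10.8, 9.12 and 9.22 CPM in WT sham 1 to 4 and 3.64, 3.20, 10.5 and 10.8 CPM in JP2CR sham 1 to 4, only JP2CR sham 1 and 2 were low.

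Coq10b, which assists coenzyme Q in respiration, stood at 69.8, 60.9, 68.5 and 64 CPM in WT sham 1 to 4 and 28, 25.3, 59.6 and 66.4 CPM in JP2CR sham 1 to 4, with a similar division. Plin1, a coat protein of fat cell lipid droplets, Scd1, Cebpa, Fosb and Ntrk2 were also among the 10 lowest. Sox4, Pim1, Rap1gap, Nppb, Efna1, Pde3a, Rasl11b, Garem and St5 were among the 10 highest. Of these, Efna1, an ephrin ligand, had a log2 fold change of 0.41 with all libraries (edgeR adjusted p = 0.267).

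The authors' deposited table holds their own comparison of the sham groups. It gave 47 genes as lower (0.361%) and 15 as higher (0.115%) of 13029 with an adjusted p, and the 47 included all 13 called here. All 62 genes called in the authors' deposited table had the same sign here, and 61 had an unadjusted edgeR p under 0.05. The authors' values were deposited with the counts tested here and concern the same sham groups, so this match is not an independent check. In the authors' deposited table the log2 fold change was -0.79 for Klf2, -0.91 for Sik1, -0.64 for Sgk1 and -0.44 for Nr4a2. These values were closer to 0 than those above, most of all for Nr4a2, the least abundant of the 4.

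The same genotypes after TAC form a comparison that shares no library with the sham groups, although it shares the fit. There, 49 genes were higher in JP2CR (0.362%) and 39 lower (0.288%). Of the 13 sham genes, 6 had estimates below 0, where the median log2 fold change over all genes was -0.0026. Fosl2 and Sh3rf2 were lower in JP2CR after TAC as well. Fosl2 was at 70.4 ± 8.12 CPM in WT TAC and 51.4 ± 3.23 CPM in JP2CR TAC (SD, n = 4 each), a log2 fold change of -0.46 (adjusted p = 0.0362), or -0.42 (adjusted p = 0.0243) without the 3 libraries with Xist. Sh3rf2 was at 41.7 ± 1.93 CPM in WT TAC and 29.5 ± 1.32 CPM in JP2CR TAC (SD, n = 4 each), one of -0.50 (adjusted p = 0.000579), or -0.51 (adjusted p = 0.000269) without them. For Klf2 the TAC log2 fold change was -0.18 (adjusted p = 0.538), and for Sik1 -0.046 (adjusted p = 0.952), neither of which passed.

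The genotype effect itself differed between sham and TAC for 4 of the 13 by the interaction test, which called 16 genes of all tested (0.118%). The interaction contains the sham difference by which the 13 were chosen. Their share is therefore raised by that choice and is not comparable with the share of all genes. Sgk1 averaged 96.4 ± 5.18 CPM in WT and 57.4 ± 4.16 CPM in JP2CR (SD, n = 4 each) after sham surgery, but 74.6 ± 7.81 CPM in WT TAC and 101 ± 21.8 CPM in JP2CR TAC (SD, n = 4 each), and the effects differed by 1.19 on the log2 scale (edgeR adjusted p = 0.0128). Mpc1 averaged 282 ± 4.74 CPM in WT and 234 ± 12.7 CPM in JP2CR (SD, n = 4 each) after sham surgery and 226 ± 11.8 CPM in WT TAC and 259 ± 5.34 CPM in JP2CR TAC (SD, n = 4 each), a difference of effects of 0.47 (edgeR adjusted p = 0.0128). H2-K1 and B2m differed in effect by 0.46 and 0.58 (edgeR adjusted p = 0.0282 and 0.0398). For Klf2 and Sik1 the interaction did not pass (edgeR adjusted p = 0.0549 and 0.0705). It did pass for them without the 3 libraries with Xist, at 0.69 (adjusted p = 0.0341) for Klf2 and 1.10 (adjusted p = 0.049) for Sik1, beside 1.22 (adjusted p = 0.00379) for Sgk1, 0.53 (adjusted p = 0.00183) for Mpc1, 0.53 (adjusted p = 0.00379) for H2-K1 and 0.67 (adjusted p = 0.00573) for B2m. No gene passed the interaction test without WT sham 3 and 4, or without WT TAC 3 and JP2CR TAC 3, each of which lay between 2 others of its group in 99.2% of the genes that differed between those.

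**Figure D5:**
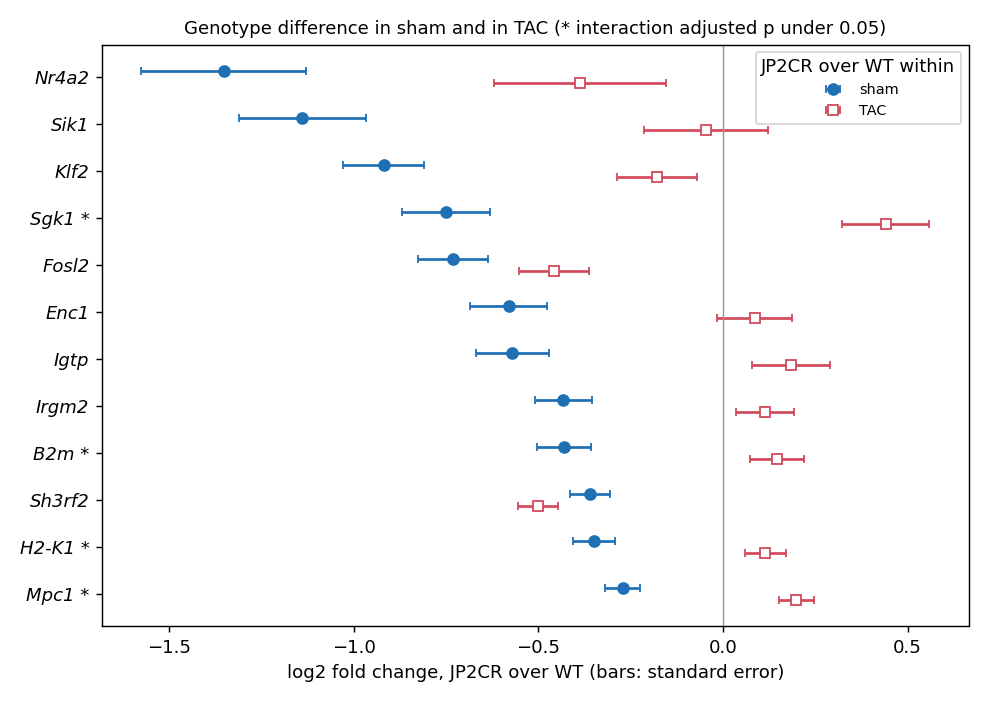
Log2 fold change of JP2CR over WT with its standard error (x axis) for 12 of the 13 genes (y axis), in sham and in TAC libraries, with an asterisk where the interaction passed. All 12 sham values lie below 0, whereas the TAC values lie on both sides of it, with Sgk1, Mpc1, H2-K1 and B2m marked.

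Genes near the edited locus were examined separately. Of 171 tested genes within 10 Mb of Jph2, none was called, and the smallest edgeR adjusted p was 0.0859, for Wisp2. At an unadjusted p under 0.05 there were 26, or 15.2%, against 7.97% of all genes tested, with 10 lower and 16 higher. The groups did not overlap for 9, or 5.26%, against 4.76% of all genes. Without the 3 libraries with Xist the share at an unadjusted p under 0.05 was 12.3% against 10.3%, and 1 gene, Cebpb, was called.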

How the data were processed

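RNA from ventricles was measured in 16 libraries, 4 a group. Per the labels' protocols, RNA was extracted with Trizol and made into stranded, polyA-enriched libraries. Per the submitters' processing notes, the mm10 build (GRCm38) was used with FastQC 1.0.0, Picard 1.128, DESeq2 1.6.3, STAR 2.5.0b, Cufflinks 2.2.1 and bedtools 2.17.0. What each tool did, which annotation served and whether counting used the strand is not given in the sources used here, so how reads of near-identical genes were divided is unknown. The values tested were whole-number counts per gene symbol, as deposited. The same deposited table carries the authors' log2 fold changes and their adjusted p-values, with no method stated. The deposited columns of mixed numbers and text (other values) were read only for those sham values. Of 24421 entries, 27 had symbols turned into dates and 5817 had 0 counts throughout. Mitochondrially encoded genes were not analysed here.

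The counts went into edgeR 4.0.16 (R 4.3.3). After filterByExpr and TMM scaling, 1 model with 4 group means was fitted to the 16 libraries, and each contrast was put to the quasi-likelihood F test with Benjamini-Hochberg adjustment over all 13522 genes tested. A gene was called at an adjusted p under 0.05. The standard error is the size of the log2 fold change divided by the square root of F, and CPM use TMM-scaled totals. The code was tested on simulated data. The members, lists and tests were chosen with earlier results of these data known. The text names 12 heart genes, every called gene, the 10 smallest p-values among genes not called, the 10 highest and 10 lowest called without the libraries with Xist, and for each list its first member and the 4 of smallest p. Atf3, Bhlhe40, Bst2, Cd74, Ciart, Dbp, Egr1, H2-Aa, H2-Ab1, H2-D1, Ifit3, Ifitm3, Klf4, Nr4a1, Per2, Tap1, Wisp2, Zbtb16 and Zfp36 fall outside this rule and were named after their values were seen. Some genes that the rule selects, 1 of the 13 called among them, are not reported here. Alternatives were other scalings and filters, DESeq2 1.42.0, limma voom 3.58.1, fits of the sham libraries alone, a replicate block, marker means as covariates and left-out libraries; 3 sets of left-out libraries were chosen after seeing the data. Figures were drawn with matplotlib 3.10.9.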

Additional observations from a re-analysis of the deposited data

Results flagged for a closer look

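In 8 of 158 groups of 4 values examined, 1 library lay further from the others than Dixon's critical value allows, and chance gives about 1 in 20. In the JP2CR sham group these were Nr4a1 at 70.7 CPM in sham 3, Zfp36 at 30.4 CPM in sham 4 and Csrnp1 at 23.4 CPM in sham 4. The summed adipocyte markers, at 385 CPM in JP2CR sham 3, stood apart as well. In the WT sham group they were Sri at 38.9 CPM and Ifitm3 at 57.9 CPM in sham 1, Pim1 at 15.9 CPM in sham 3 and H2-Eb1 at 60.6 CPM in sham 4.

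The genotype effect differed between sham and TAC by the edgeR interaction test, on the log2 scale, by 1.19 for Sgk1 (adjusted p = 0.0128), 0.46 for H2-K1 (adjusted p = 0.0282), 0.58 for B2m (adjusted p = 0.0398), 0.47 for Mpc1 (adjusted p = 0.0128) and 0.71 for H2-Eb1 (adjusted p = 0.0256). The library labelled JP2CR TAC 4, which enters the fit and not the sham contrast, held Xist at 141 CPM beside Y-linked genes at 118 CPM.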

How the results depend on the processing

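Against 13 genes lower and 0 higher, DESeq2 called 39 lower and 14 higher, a fit with no filter on low counts 22 and 3, and a fit without the 3 libraries with Xist 44 and 20, or 242 and 160 when only sham libraries were fitted. Upper-quartile factors gave 1 higher and marker means as covariates 5 higher. Leaving out 1 sham library gave 5 to 27 lower and 0 to 5 higher. Leaving out WT sham 3 and 4 gave 0 lower, leaving out these and the libraries with Xist 2 lower, and leaving out WT TAC 3 and JP2CR TAC 3 gave 6 lower. An adjusted p under 0.01 left 2 lower, and a fold change of at least 1.5 left 5 lower. The 8 sham libraries fitted alone gave 11 lower, 5 of them among the 13.

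Same-numbered sham libraries had correlations of their deviations of 0.0759, -0.115, -0.0465 and -0.0264, within the range of unlike-numbered ones (-0.279 to 0.221). These values cannot show whether same-numbered libraries shared a litter or batch, which was not tested. A replicate block gave 20 lower and 2 higher, 1 higher with only the sham libraries, and 9 genes for the interaction.

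Against 88 genes called between genotypes after TAC, DESeq2 gave 223, the fit without the libraries with Xist 378, marker covariates 15, the fit without WT sham 3 and 4 9, that without TAC 3 of both groups 4, and single left-out sham libraries 35 to 246. Against 16 for the interaction, the numbers in the same order were 128, 372, 2, 0 and 0, with 39 without a filter, 73 without WT sham 3 and 4 and the libraries with Xist, and 2 to 120 with single sham libraries left out. The cause of these changes was not tested.

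Some estimates near 0 changed sign. Without the libraries with Xist, without them with only sham libraries, and without them and WT sham 3 and 4, in that order, log2 fold changes were -0.079, -0.075 and -0.093 for Jph2, 0.0090, 0.013 and 0.012 for Ryr2, -0.049, -0.046 and -0.057 for Atp2a2, -0.027, -0.024 and -0.030 for Capn2, 0.083, 0.087 and 0.071 for Cast, and -0.16, -0.16 and -0.16 for Myh6. With marker covariates Capn1 was at 0.057 and Acta1 at 0.15. Leaving out single sham libraries, log2 fold changes ran from -0.012 to 0.090 for Jph2, -0.0061 to 0.087 for Atp2a2, -0.092 to 0.039 for Capn1, -0.019 to 0.049 for Capn2, -0.042 to 0.033 for Cast, -0.90 to 0.17 for Nppa, -0.70 to 0.14 for Acta1.

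The 13 called genes kept estimates below 0 in all alternatives run. This is no separate check, because their sham groups did not overlap and the alternatives reuse the same libraries. Klf2, Fosl2 and Sik1 were called in 21 of 23 fits, and Irgm2 in 10. Nr4a2 rests on few counts, which limits its precision.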
